A study of Mus musculus with 2 samples.

Results

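The 9 genes described here encode ADAM proteins of sperm and the chaperones that handle them, and all 9 were found by symbol among the 36547 genes listed in the 2 count tables. They are the 6 ADAM genes Adam1a, Adam1b, Adam2, Adam3, Adam5 and Adam32 and the 3 chaperone genes Clgn, Calr3 and Pdilt. The genes were taken by name, with no threshold on any measured value. ADAM proteins carry a disintegrin and a metalloprotease domain, although most of the testis members are not thought to act as proteases. ADAM2 pairs with ADAM1A in the endoplasmic reticulum of developing germ cells and with ADAM1B on sperm, where the pair is called fertilin. ADAM3 is the member on which male fertility depends most directly, since sperm without it neither pass from the uterus into the oviduct nor bind the zona pellucida. Its arrival on the sperm surface needs calmegin (CLGN), a testis relative of calnexin that assembles the ADAM1A and ADAM2 pair, calsperin (CALR3), a testis relative of calreticulin, and PDILT, a testis relative of the protein disulfide isomerases. The data are mRNA counts, and none of these proteins was measured.

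The study compared testis cells of wild-type (WT) mice and mice lacking Alkbh5 (KO), an enzyme that removes N6-methyladenosine from RNA. A single library of testis cells was made for each genotype, both from C57BL/6 animals aged 12 weeks. The methods mention testes of 3 mice per genotype, so each library may pool animals, and no difference between the genotypes has a replicate check. The WT library held 5756 cell barcodes with 80283221 UMIs (unique molecular identifiers, each standing for 1 captured RNA molecule) and a median of 10905.5 UMIs per cell, while 7012 barcodes, 82056760 UMIs and a median of 9117.5 were found for KO. Alkbh5 itself had 607 UMIs in the WT library (95% Poisson interval 560 to 657) and 5 in the KO library (1.62 to 11.7). The 2 libraries shared 45 barcode sequences.

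Cells were grouped with both libraries integrated, and each of the 17 clusters was named from marker genes. The names mean cells that resemble the type, the suffix "-like" is left out below, and a difference from the study's own cell types may come from these rebuilt names. Of the clusters, 13 were germ cells, with 5587 WT and 5268 KO cells, and 4 were somatic. In their order along spermatogenesis the germ cell clusters were spermatogonia, early spermatocytes, late spermatocytes 1 and 2, early-stage round spermatids 1 and 2, mid-stage round spermatids 1 and 2, late-stage round spermatids and elongating spermatids 1 to 4. Within a class, clusters were numbered by falling correlation of their WT profile with that of the preceding class. This numbering was computed from the same counts and is not a measured time. Words such as earlier and later refer to it below. The mix differed: the WT library had 190 spermatogonia and 560 cells in the last elongating cluster, and the KO library had 1064 and 155. Levels are given as CPM, the UMIs of a gene per 1000000 UMIs of the cluster, and the intervals in parentheses are exact 95% intervals that cover counting error only. Of the 9 genes, 3 were among the features used for clustering, so levels across clusters are a description and carry no test.

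UMIs of the 9 genes also appeared in cells that should lack them. Free RNA, doublets and mixed barcodes cannot be told apart as their source in these tables. Leydig cells, which should lack all 9 transcripts, had median depths of 10004 UMIs per cell in the WT and 7872 in the KO library. At a common depth of 5000 UMIs per cell, an Adam3 UMI was present in 12.8% of WT and 9.25% of KO Leydig cells, and a Clgn UMI in 13.8% and 8.99%. Levels in Leydig cells were higher in the WT than in the KO library for 8 of the 9 genes, as for Adam2 with 37.6 against 12.8 CPM and Pdilt with 55.9 against 8.77 CPM. Macrophages, with median depths of 8467.5 and 7249 UMIs, held more, with Adam3 in 61.5% of 26 WT and 45.5% of 77 KO cells at that depth. These values are given below as the background.

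In the mouse annotation (GENCODE M21, GRCm38), to which the genes were matched by symbol only, all 9 are protein-coding. Of the ADAM genes, 3 lie side by side on the minus strand of chromosome 8, Adam3 at chr8:24677225-24725852, Adam5 at chr8:24727093-24824369 and Adam32 at chr8:24836140-24948804, with Adam18 before them and Adam9 after them. Adam3 and Adam5 are 1240 bp apart. Calr3 (chr8:72424176-72443870, minus strand) and Clgn (chr8:83389867-83428552, plus strand) are elsewhere on that chromosome. Adam1b (chr5:121500098-121503435) and Adam1a (chr5:121518576-121545482) are neighbours on the minus strand of chromosome 5, 15140 bp apart, Pdilt is at chr7:119486587-119523489 and Adam2 at chr14:66027329-66077733, both on the minus strand. The other 7 genes shared no 50-base stretch of transcript with any other gene. Adam1b shared 32.4% of its 50-base stretches with Adam1a, and Adam1a shared 77.8% of its own with other genes, mainly with the overlapping genes Gm42878 and Mapkapk5, so counts of these 2 genes, and of Adam1a above all, are uncertain.

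Promoter sequence (250 bases before to 50 after the RefSeq start, GRCm38.p6) was at hand for Adam1a, Adam1b, Pdilt and Calr3 only. Many genes switched on in spermatids carry cAMP response elements near their start, so the core TGACG of that element was searched for on both strands. Calr3 held it at 2 places, and the other 3 genes did not hold it in this window. The copy ahead of the RefSeq start of Calr3 is shown because Calr3 was the only one of the 4 to hold the core. It lies within the longer gene span that GENCODE gives for Calr3. It is printed with the core in capitals (CGTCA, the core read on the other strand), read on the gene's strand from chr8:72443812-72443838.
Calr3: acaatcccgggCGTCAcgggaccagta
The core was present in 20.8% of all 32851 promoters in the table, and the full palindrome TGACGTCA, present in 1.79%, was in none of the members' promoters. A match in letters does not show that a factor binds there.

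Adam1b and Adam2, whose products form fertilin, were at their highest before the spermatid stages. In the WT library Adam2 was highest in late spermatocytes 1 with 420.2 CPM (403 to 438), a value not apart from the 396 CPM (382 to 409.7) of late spermatocytes 2, and its level was lower in each cluster after that down to 15.7 CPM in late-stage round spermatids. Adam1b was highest in late spermatocytes 2 with 138 CPM (130.2 to 147) and stood at 1.91 CPM in late-stage round spermatids. The KO library followed the same course, with Adam2 at 427 CPM and Adam1b at 128 CPM in those clusters and 21.5 and 0.844 CPM in late-stage round spermatids. For Adam1b the highest point stood little above early-stage round spermatids 1, where it was at 121 CPM in the WT and 122 CPM in the KO library. At 5000 UMIs per cell, the share of WT cells with an Adam2 UMI was 86.5% in late spermatocytes 1, 55.8% in mid-stage round spermatids 1 and 6.97% in late-stage round spermatids, the last close to the 8.51% of Leydig cells.

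Adam1a ran the other way along the stages. It was at 1 WT UMI in late spermatocytes 2, where Adam1b had 1113, and was highest in mid-stage round spermatids 2 with 14.9 CPM (12.5 to 17.6) in the WT and 10.1 CPM (8.01 to 12.5) in the KO library. Over the 13 germ cell clusters, the Pearson correlation of log2(CPM + 1) between Adam1a and Adam1b was -0.36 in the WT and -0.30 in the KO library, while that between Adam1b and Adam2 was 0.93 and 0.91. All 13 points of such a correlation share a library and a clustering, so no p-value was attached. In none of the 13 WT clusters did Adam1a reach a UMI in more than 7.69% of cells at 5000 UMIs.

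**Figure D1:**
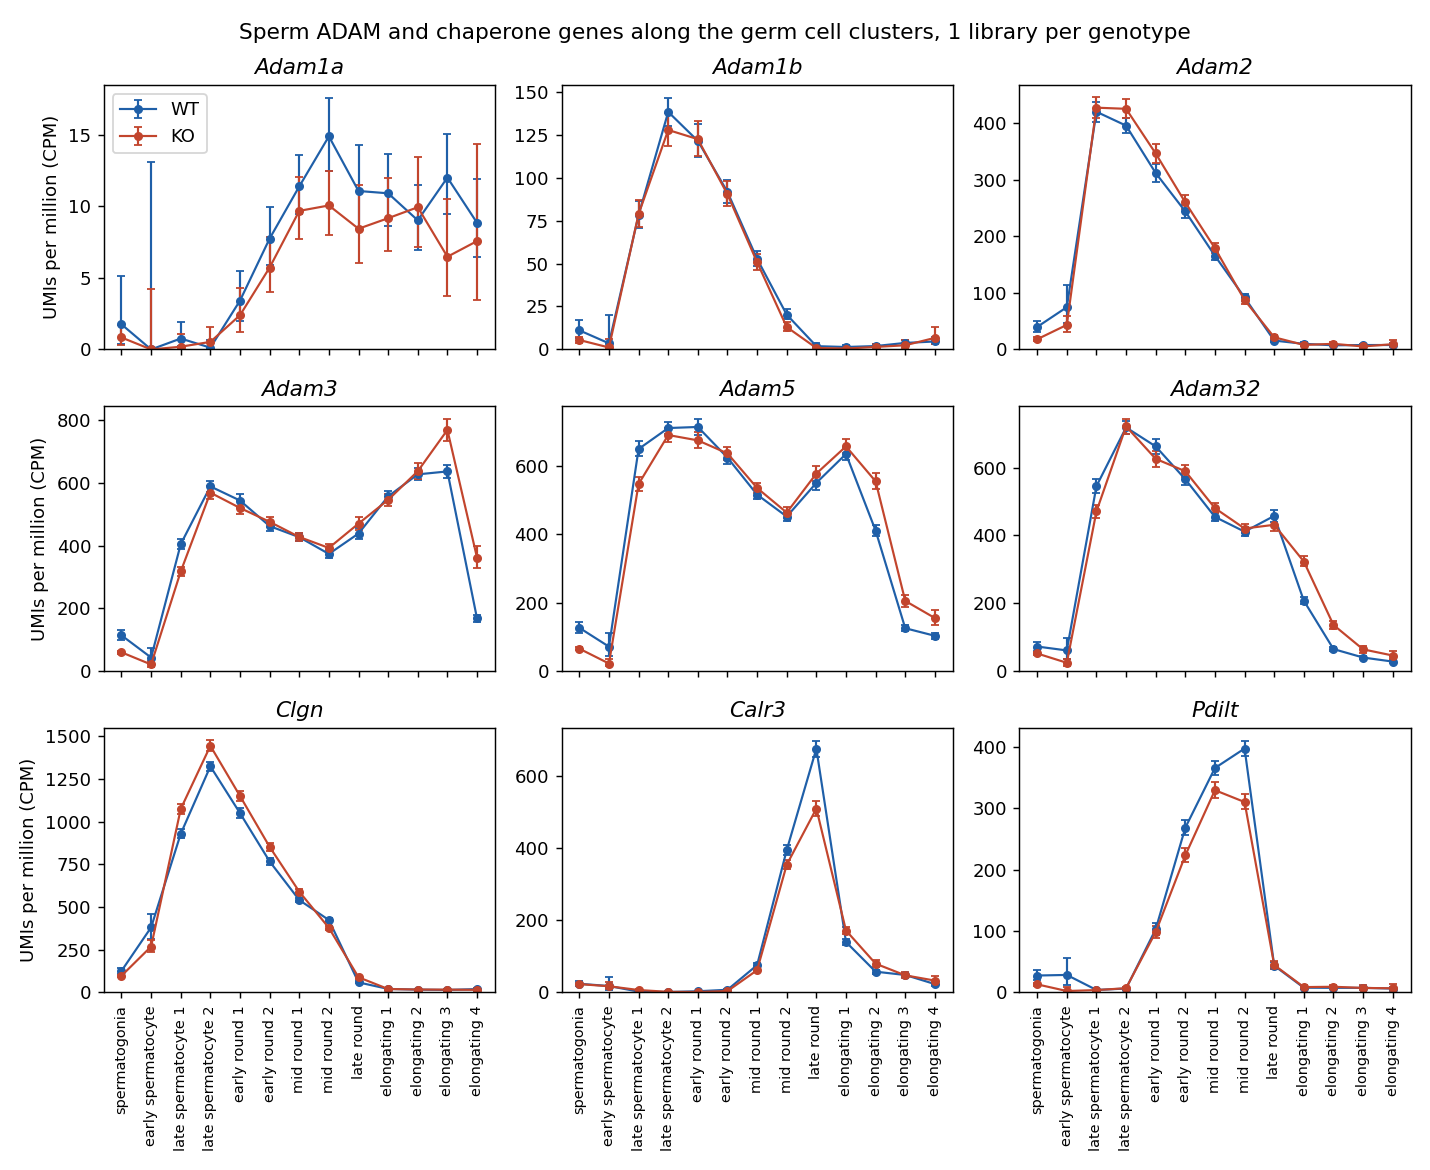
Level of each of the 9 genes (y axis, CPM) in the 13 germ cell clusters in stage order (x axis), with the WT library in blue, the KO library in red and exact 95% Poisson intervals as bars. Adam2, Adam1b and Clgn were highest in late spermatocytes, Pdilt in mid-stage and Calr3 in late-stage round spermatids, and the red points of Adam3, Adam5 and Adam32 lie above the blue ones at the right end.

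The 3 neighbours on chromosome 8 began together and ended in sequence. All 3 were already high in late spermatocytes 1 of the WT library, with Adam3 at 405, Adam5 at 650.1 and Adam32 at 545 CPM, against 42.7, 71.1 and 60.5 CPM in the 35 early spermatocytes. As CPM, all 3 passed through a dip in mid-stage round spermatids 2 and were higher again in late-stage round spermatids. The dip was at 58.6% of the highest cluster for Adam3, 63.3% for Adam5 and 57.2% for Adam32. Counted per cell, their UMIs were not higher again. The 468 mid-stage cells held 3431, 4156 and 3776 UMIs of Adam3, Adam5 and Adam32, and the 330 late-stage cells 2294, 2883 and 2393. From late-stage round spermatids on, their courses parted.

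Adam32, whose role in sperm is the least known of the 3, was the first to decline. Its WT level was 457 CPM (439 to 476) in late-stage round spermatids, 207 CPM (197 to 218) in elongating spermatids 1 and 64.5 CPM (58.7 to 70.7) in elongating spermatids 2. Adam5 was still at 636 CPM (617 to 655) in elongating spermatids 1 and 411 CPM in elongating spermatids 2, and stood at 125 CPM (117 to 134) in elongating spermatids 3. Adam3 was at its highest CPM in elongating spermatids 3 with 637 (617 to 657), and stood at 167 CPM (156 to 179) in elongating spermatids 4. Counted per cell it was higher earlier, with 4740 UMIs in 454 late spermatocytes 2 against 4024 in 666 elongating spermatids 3. Median depths in these clusters were 15749 and 7979 UMIs per cell. The CPM interval of Adam3 in elongating spermatids 3 overlapped that of elongating spermatids 2. Each of the declines named here was larger than counting error, with intervals that do not overlap. The share of WT cells with an Adam3 UMI at 5000 UMIs was 94.6% (92.6 to 96.2) in elongating spermatids 3 and 47.5% (43.3 to 51.7) in elongating spermatids 4, both far above the 12.8% of Leydig cells.

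The flanking genes did not share this late phase. Adam18, a testis ADAM gene, was highest in late spermatocytes 2 with 288 CPM in the WT and 279 in the KO library and was at 9.65 and 9.18 CPM in elongating spermatids 1. Adam9, a broadly expressed ADAM gene, had 58 UMIs over all WT germ cells and 81 over all KO germ cells.

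The 3 testis chaperones appeared in succession. Clgn was highest in late spermatocytes 2 with 1323 CPM (1298 to 1348) in the WT and 1443 CPM (1412 to 1474) in the KO library, and at 32.0% and 26.2% of that level in mid-stage round spermatids 2. Pdilt was at 6.33 CPM in WT late spermatocytes 2, 102.9 in early-stage round spermatids 1 and 397 CPM (384 to 409.9) at its highest, in mid-stage round spermatids 2. In the KO library its highest cluster was mid-stage round spermatids 1, with 329 CPM (317 to 342), followed by mid-stage round spermatids 2 with 309.8 CPM (298 to 322), and these 2 intervals overlap.

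Calr3 came last. In the WT library it had 9 UMIs in the 454 late spermatocytes 2, 75.8 CPM in mid-stage round spermatids 1, 395 in mid-stage round spermatids 2 and 677 CPM (654 to 699) in late-stage round spermatids, and was down to 139.9 CPM in elongating spermatids 1. In late-stage round spermatids, where Calr3 was highest, Clgn was at 4.44% and Pdilt at 10.98% of their own highest WT levels. The cells with a Calr3 UMI at 5000 UMIs made up 94.2% (91.2 to 96.5) of WT late-stage round spermatids, against 5.32% of Leydig cells. Mid-stage round spermatids 2 were the cluster in which all 3 overlapped, with a Clgn UMI in 87.2%, a Pdilt UMI in 86.3% and a Calr3 UMI in 78.8% of WT cells.

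The general chaperones of the endoplasmic reticulum preceded all 3. Calnexin (Canx), calreticulin (Calr) and the protein disulfide isomerase P4hb were each highest in early spermatocytes in both libraries. In the WT library Canx was at 419.8 CPM there, 117 in late spermatocytes 2 and 7.07 in late-stage round spermatids. Calr stood at 722, 192 and 20.1 CPM in the same 3 clusters, and P4hb at 242, 11.3 and 0.382 CPM. The order of each pair was thus the same, with the general gene first and its testis relative later.

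**Figure D2:**
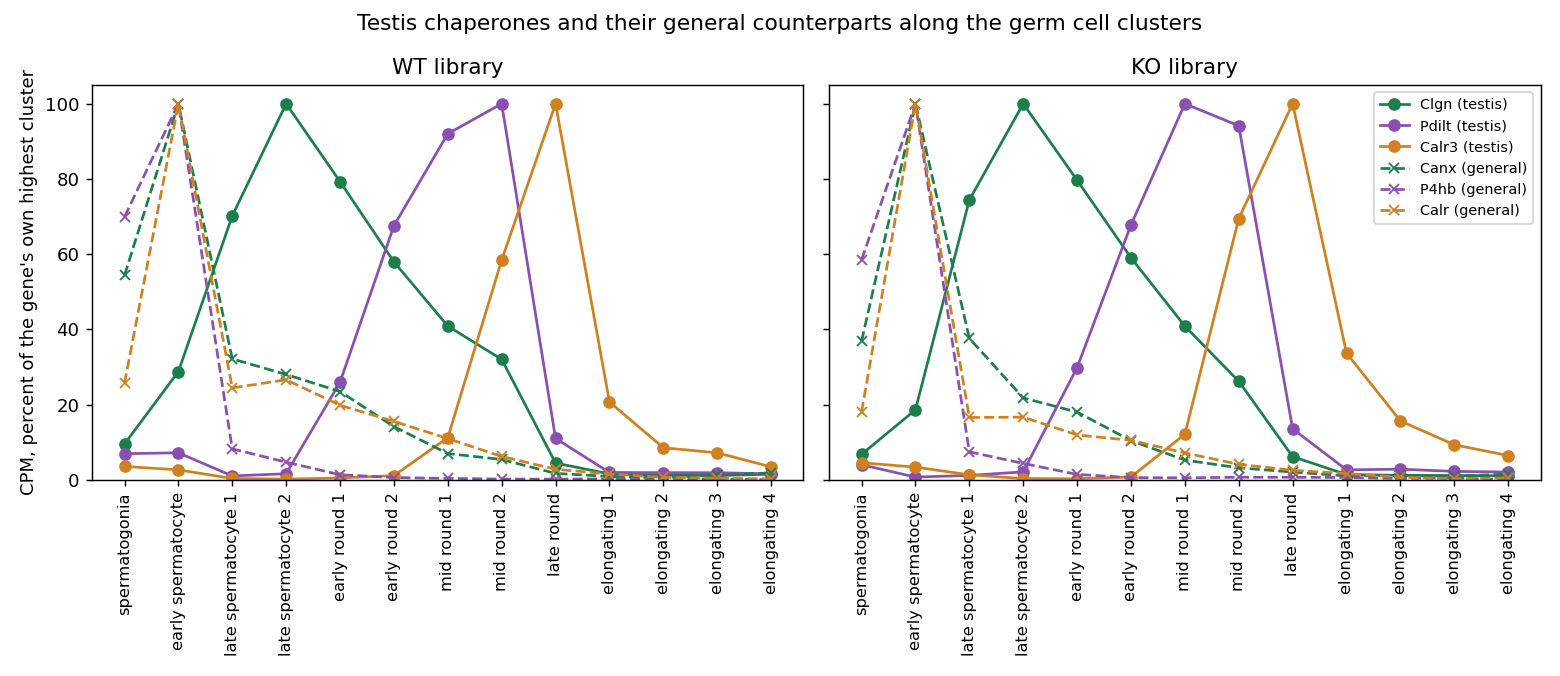
Level of each testis chaperone (solid lines) and its general counterpart (dashed lines of the same colour) as a percentage of the gene's own highest germ cell cluster (y axis), along the 13 clusters (x axis), WT on the left and KO on the right. The dashed lines are at 100% in early spermatocytes, and the solid lines reach 100% in the order Clgn, Pdilt, Calr3 in both libraries.

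Transcripts of Adam3 and Adam5 outlasted those of the chaperones. In WT late-stage round spermatids, 95.5% of cells at 5000 UMIs had a UMI of at least 1 of the 3 chaperones (92.6 to 97.4), and in elongating spermatids 1 to 4 the share was 50.9%, 34.3%, 29.7% and 20.9%. Over the same 4 clusters an Adam3 UMI was present in 94.2%, 93.9%, 94.6% and 47.5% of WT cells. Of the 536 WT cells of elongating spermatids 1, 505 had an Adam3 UMI, and 50.1% of these also had a chaperone UMI (45.6 to 54.5). These 505 are nearly all cells of the cluster, so their share had to lie near its 50.9% and does not bear on co-occurrence. In the KO library the chaperone shares in elongating spermatids 1 to 4 were 63.0%, 37.6%, 30.95% and 21.3%, and only for elongating spermatids 1 do the intervals of the 2 libraries not overlap (46.6 to 55.2 in WT, 58.4 to 67.4 in KO).

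**Figure D3:**
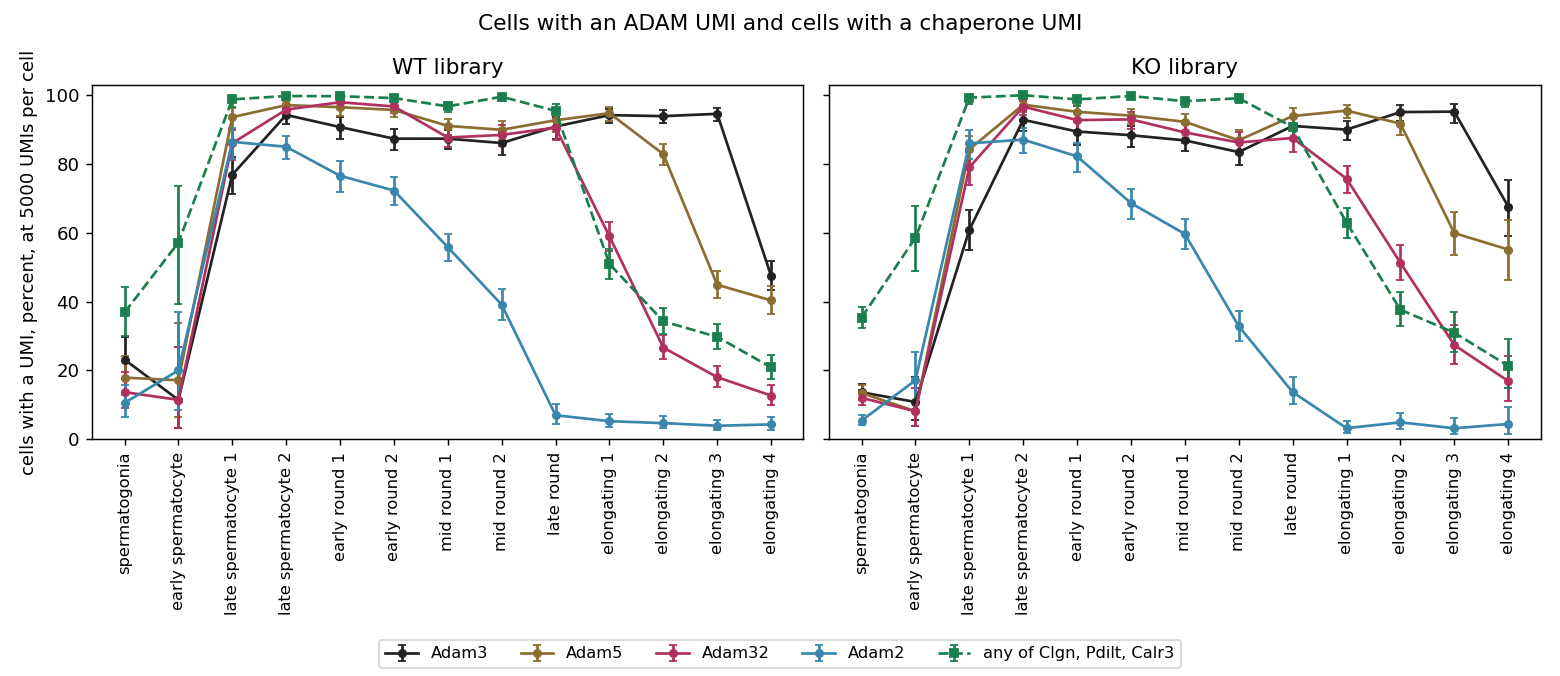
Percentage of cells with at least 1 UMI at a common depth of 5000 UMIs per cell (y axis) in each germ cell cluster (x axis) for Adam2, Adam3, Adam5 and Adam32 and, as a dashed line, for any of the 3 chaperones, with exact 95% binomial intervals. In both libraries the dashed line is above 90% from late spermatocytes 1 to late-stage round spermatids and lower afterwards, while the Adam3 line stays near the top as far as elongating spermatids 3.

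The genes with the most similar course were taken from 4589 genes with at least 2000 UMIs in WT germ cells, by Pearson correlation of log2(CPM + 1) over the 13 WT clusters. Nearest to Adam2 were Wdr12, Nkapl and Bbof1, with r from 0.995 to 0.996. Nearest to Clgn was Arl3 with 0.996. Pdilt was closest to Spata9 (0.994), Spaca4 (0.993) and Eqtn (0.992), the last 2 being genes of acrosomal membrane proteins. Adam32 was closest to Cmtm2a (0.993) and Dkkl1 (0.987), and Calr3 to 1700027F06Rik (0.987). For Adam3 the nearest were Osbpl1a (0.976), 1700017D01Rik (0.976) and Upk3bl (0.971), for Adam5 Oscp1 (0.978), for Adam1b Tmbim7 (0.988) and for Adam1a Kif16bos (0.987). Among the 9 genes themselves the highest correlation was that of Adam2 and Clgn, 0.987 in the WT and 0.977 in the KO library, and the lowest that of Adam1b and Calr3, -0.68 and -0.73.

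Between the genotypes, the 9 genes differed little when all germ cells were pooled. Log2 ratios of CPM, KO over WT, were -0.55 (-0.73 to -0.36) for Adam1a, -0.10 (-0.17 to -0.027) for Adam1b, 0.087 (0.049 to 0.12) for Adam2, -0.15 (-0.17 to -0.12) for Adam3, -0.019 (-0.04 to 0.0027) for Adam5 and 0.046 (0.022 to 0.07) for Adam32. For the chaperones they were 0.13 (0.11 to 0.15) for Clgn, -0.14 (-0.19 to -0.10) for Calr3 and -0.22 (-0.26 to -0.18) for Pdilt. A gene was called by size, with no test, when at least 25% of cells of either genotype had a UMI and the natural logs of 1 plus the mean count per 10000 differed by at least 0.25. Of the 9 genes, 8 met the first condition, Adam1a did not, and 0 of the 8 passed the second in either direction, beside 11.4% of all genes called higher and 5.82% called lower in the KO library. The median ratio of the 9 was -0.097, and that of 17307 genes with at least 100 UMIs was 0.26. With every germ cell cluster given the same weight, the median of the 9 was 0.024, the largest departures were Adam1a with -0.37, Pdilt with -0.26 and Calr3 with -0.17, and again none passed, beside 1.46% of genes called higher and 0.382% called lower.

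Differences appeared by stage, and the clearest were in elongating spermatids. Adam32 was at 207 CPM in the WT and 323 in the KO library in elongating spermatids 1 (1460 and 1863 UMIs), a log2 ratio of 0.64 (0.54 to 0.74), and at 64.5 and 136 CPM in elongating spermatids 2, a ratio of 1.07 (0.89 to 1.25). Both passed the size criterion, beside 4.81% and 6.34% of genes called higher in these clusters. In elongating spermatids 3 and 4 its ratios were 0.69 (0.39 to 0.98) and 0.72 (0.24 to 1.19), without a call.

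Adam5 and Adam3 showed the same direction, each later than the one before. Adam5 was at 411 CPM in WT and 555 in KO elongating spermatids 2, a log2 ratio of 0.43 (0.35 to 0.51), and at 125 and 205 CPM in elongating spermatids 3, a ratio of 0.71 (0.55 to 0.88) that passed the criterion, beside 7.46% of genes. Adam3 had ratios of -0.029 (-0.10 to 0.039) and 0.023 (-0.047 to 0.093) in elongating spermatids 1 and 2, 0.27 (0.19 to 0.35) in elongating spermatids 3 and 1.11 (0.94 to 1.28) in elongating spermatids 4. There it was at 167 CPM (156 to 179) in 560 WT cells and 361 CPM (328 to 397) in 155 KO cells and passed the criterion, as did 14.1% of the genes in that cluster, whose median log2 ratio over all genes was 0.17. In each case the call fell in a cluster where the WT level was past its highest point.

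Other values also differed between the libraries in these clusters, and their part in the 3 differences was not tested. The 8 markers of late-stage round spermatids, the stage before elongation, were together 1.31, 1.08, 1.06 and 1.198 times as high in the KO as in the WT library in elongating spermatids 1 to 4, with 6, 6, 5 and 8 of the 8 higher, and none of the 8 was at 0 in either library. The 28 elongating spermatid markers were together 0.94, 0.94, 0.92 and 0.81 times as high. Markers of some other cell types moved further, and those of others did not. The 10 Leydig cell markers, none of them at 0, were together at 25.3 to 39.6 CPM in the 4 WT and 155 to 318 CPM in the 4 KO clusters, with KO over WT ratios of 4.01, 5.27, 6.36 and 12.3 and at least 8 of the 10 higher in each. The 12 Sertoli cell markers were 2.81, 9.65, 6.67 and 10.6 times as high. The 11 lymphoid markers, of which 4 to 6 were higher, were 2.50, 2.51, 2.97 and 3.30 times as high. Per library and cluster, 2 to 5 of the Sertoli and 3 to 6 of the lymphoid markers were at 0. The Leydig and Sertoli lists were also higher in KO outside the elongating clusters. They stood at 4.06 and 5.92 times in mid-stage round spermatids 1 and at 2.16 and 16.8 times in late spermatocytes 1. In elongating spermatids 1 to 4 the 11 macrophage markers were together 1.04, 0.97, 0.80 and 0.65 times as high, although 7, 8, 8 and 6 of them were higher. The 18 spermatogonia markers stood at 1.11, 0.99, 0.84 and 1.51 times, and the 16 mid-stage round spermatid markers at 1.01, 0.86, 0.87 and 0.82 times. In elongating spermatids 4, where the Adam3 call fell, the 16 early spermatocyte markers were together 1.72 times as high (13 higher) and the 16 late spermatocyte markers 1.39 times (9 higher). Median depths were lower in the KO library in each of the 4 clusters, from 9732 against 11374.5 UMIs in elongating spermatids 1 to 6416 against 7176 in elongating spermatids 4. With the 4 clusters at equal weight, the log2 ratio was 0.74 for Adam32, 0.30 for Adam5 and 0.22 for Adam3, against 1.10, 0.55 and 0.20 with their cells pooled, where 9.47% of genes were called higher. Adam32 and Adam5 passed the criterion with the cells pooled, and only Adam32 did so at equal weight.

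**Figure D4:**
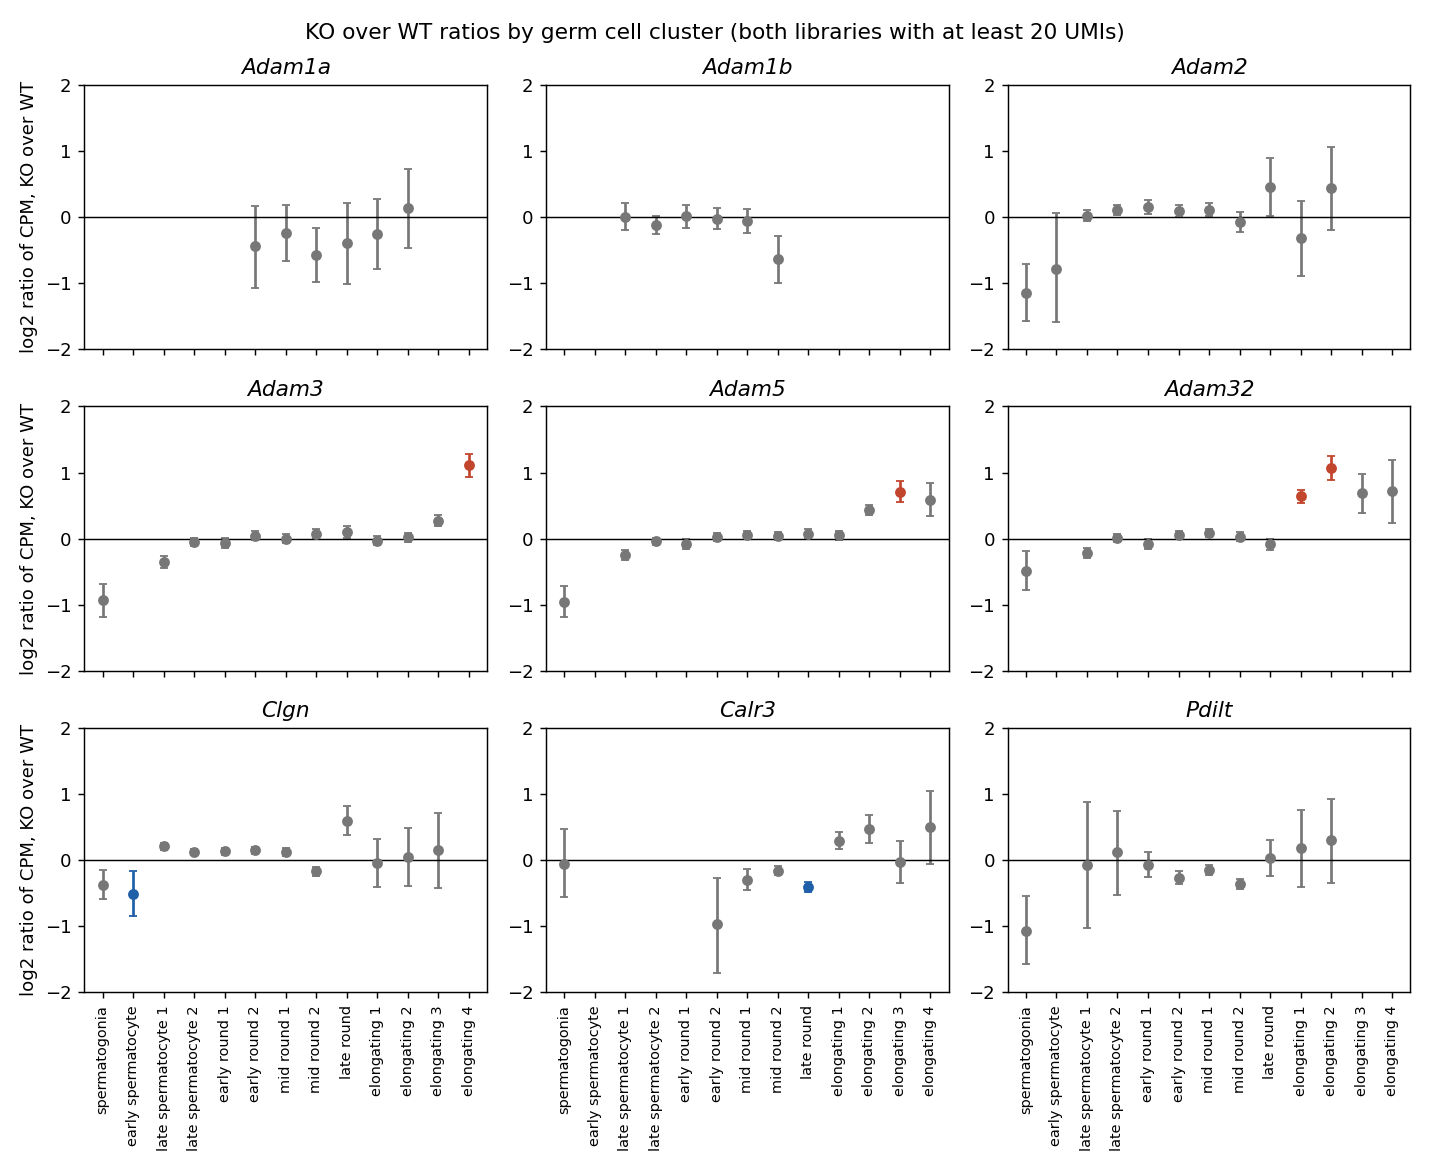
Log2 ratio of CPM, KO over WT (y axis), of each gene in each germ cell cluster (x axis) where both libraries had at least 20 UMIs, with exact 95% intervals for counting error. Red points were called higher and blue points lower in the KO library by the size criterion, and in the row of Adam3, Adam5 and Adam32 all red points are in elongating clusters.

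Earlier in the same lineage, in late spermatocytes 1 but not in late spermatocytes 2, the intervals of these 3 genes lay below 0. In late spermatocytes 1 the log2 ratio was -0.35 (-0.44 to -0.26) for Adam3, -0.25 (-0.32 to -0.18) for Adam5 and -0.21 (-0.29 to -0.13) for Adam32, and in late spermatocytes 2 it was -0.05 (-0.11 to 0.015), -0.042 (-0.10 to 0.017) and 0.0062 (-0.052 to 0.064). In late spermatocytes 1 the 16 early spermatocyte markers were together 1.43 times as high in the KO library, with 13 of them higher, and the 14 markers of early-stage round spermatids 0.90 times as high, with 0 higher. The part of these in the ratios was not tested. From early-stage round spermatids 1 to late-stage round spermatids the ratios of the 3 genes ranged from -0.09 to 0.10. From late spermatocytes 1 to mid-stage round spermatids 2 none of the 9 genes passed the size criterion in either direction. In those 6 clusters, in stage order, 0.935%, 0.442%, 0.731%, 1.38%, 2.50% and 2.85% of genes were called higher and 0.850%, 0.672%, 0.577%, 0.921%, 1.23% and 1.60% lower.

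Of the chaperones, Calr3 and Pdilt were lower in the KO library at their own highest stage. Calr3 was at 677 CPM (654 to 699) in WT and 510.2 CPM (490.1 to 531) in KO late-stage round spermatids (3540 and 2417 UMIs), a log2 ratio of -0.41 (-0.48 to -0.33), and passed the criterion, beside 1.66% of genes called lower there. The call was not made without integration, where the ratio was -0.20, nor with a CPM ratio of at least 1.5 as the limit. In this cluster the 8 late-stage markers were together 1.05 times as high in the KO library (4 higher) and the 16 mid-stage markers 0.87 times (8 higher). The share of cells with a Calr3 UMI at 5000 UMIs was 94.2% (91.2 to 96.5) in WT and 87.3% (83.1 to 90.7) in KO cells of that cluster. In elongating spermatids 1 and 2, where its level was declining, Calr3 had ratios of 0.30 (0.17 to 0.43) and 0.47 (0.26 to 0.68). Pdilt had ratios of -0.27 (-0.36 to -0.17) in early-stage round spermatids 2, -0.15 (-0.22 to -0.079) in mid-stage round spermatids 1 and -0.36 (-0.43 to -0.28) in mid-stage round spermatids 2, with 2522 KO against 3647 WT UMIs in the last, and passed the criterion in none. In mid-stage round spermatids 2 the 16 mid-stage markers were together 0.87 times as high in the KO library, with 0 of them higher, the 14 early-stage markers 0.86 times and the 8 late-stage markers 1.15 times, and the part of this in the Pdilt ratio was not tested.

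Clgn was slightly higher in the KO library from late spermatocytes 1, with 0.21 (0.15 to 0.27), through mid-stage round spermatids 1, with 0.12 (0.069 to 0.18), and was -0.16 (-0.23 to -0.10) in mid-stage round spermatids 2. In late-stage round spermatids, where little of it was left, its ratio was 0.60 (0.38 to 0.81) on 307 WT and 420 KO UMIs, without a call. The share of cells with a Clgn UMI there was 49.4% in WT and 46.7% in KO cells, and 24.2% (19.7 to 29.2) and 26.8% (21.9 to 32.0) at 5000 UMIs, so the shares did not differ beyond counting error. It was called lower in early spermatocytes, -0.50 (-0.84 to -0.16), beside 6.83% of genes, on 107 UMIs from 35 WT cells and 235 from 121 KO cells. That call was made under 5 of 9 alternatives, and the ratio was 0.28 when the libraries were clustered without integration. The fall was not particular to Clgn, since all 8 of the genes with a ratio in early spermatocytes were below 0. Their median was -1.19, against 0.019 for all genes, and 4 intervals lay below 0. The 16 mid-stage round spermatid markers were together 0.23 times as high in KO early spermatocytes, with 0 higher. The part of this in the ratios was not tested. The fertilin genes kept close to 0 at their high stages, with Adam2 between 0.025 and 0.15 from late spermatocytes 1 to mid-stage round spermatids 1 and Adam1b between -0.11 and 0.012. In mid-stage round spermatids 2, Adam1b was at -0.64 (-0.99 to -0.28) and Adam1a at -0.57 (-0.98 to -0.16). The Adam1b levels there were 20.2 CPM in WT and 13.0 in KO, against 10.6 and 3.31 CPM in Leydig cells. Those of Adam1a were 14.9 and 10.1 CPM, against 0.964 and 0.974. The part of the background in these 2 ratios was not tested.

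In spermatogonia all 9 log2 ratios were below 0, and the intervals of 7 did not reach 0, with Adam2 at -1.14 (-1.56 to -0.71) and Adam3 at -0.93 (-1.18 to -0.69). Leydig cells showed the same side, with 7 of 9 intervals below 0. In spermatogonia the 14 early-stage round spermatid markers were together 0.57 times and the 16 mid-stage markers 0.37 times as high in KO, with 0 higher in either list. The 8 late-stage markers stood at 0.69 times (3 higher), the 28 elongating spermatid markers at 0.52 times (3 higher) and the 16 late spermatocyte markers at 1.05 times (6 higher). The part of this in the 9 ratios was not tested. In the WT library the intervals of the levels in spermatogonia and Leydig cells overlapped for 7 of the 9 genes, as for Adam2 with 39.8 and 37.6 CPM and Clgn with 126 and 98.3 CPM. Adam3 was higher in WT spermatogonia, with 114 CPM (98.1 to 131) against 65.5 CPM (50.9 to 83.1), and Pdilt was lower, with 27.5 against 55.9 CPM. In the KO library the intervals overlapped for 3 of the 9, and Adam2, Adam3, Adam5, Adam32, Clgn and Pdilt were each higher in spermatogonia, from 1.41 times for Adam3 to 2.53 times for Clgn. A Clgn UMI was present at 5000 UMIs in 27.9% (21.6 to 34.8) of WT and 27.9% (25.1 to 30.7) of KO spermatogonia, against 13.8% (7.57 to 22.5) and 8.99% (7.38 to 10.8) of Leydig cells, and an Adam3 UMI in 23.2% (17.4 to 29.8) and 13.6% (11.6 to 15.9), against 12.8% (6.77 to 21.2) and 9.25% (7.62 to 11.1). In early spermatocytes the share with a Clgn UMI was 48.6% in WT and 52.3% in KO cells. Over whole libraries, where KO somatic cells numbered 1744 against 169 in WT, all 9 ratios were below 0, from -0.76 for Adam1a to -0.12 for Clgn, and Adam3 was called lower, beside 12.0% of genes.

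The remaining genes of the pathway were counted in pooled germ cells by the same criterion. Of 14 other testis ADAM genes, 7 met the detection condition and 0 were called in either direction, and their median log2 ratio was 0.039. Of these 14, 9 were highest in mid-stage round spermatids in the WT library, 2 in early-stage round spermatids, 2 in late spermatocytes 2 and 1 in late-stage round spermatids, and none in an elongating cluster. Of 13 ADAM genes with wider expression, none reached the detection condition. Of 12 other genes needed for ADAM3 on sperm or for passage into the oviduct, 9 met the condition, Ly6k (1.03) and Tex101 (1.44) were called higher and Ace (-0.66) was called lower, beside the 11.4% and 5.82% of all genes. At equal weight per cluster the ratios were -0.16 for Ly6k, -0.026 for Tex101 and -0.32 for Ace, and none of the 12 was called. Ly6k and Tex101 encode GPI-anchored germ cell proteins and were highest in early spermatocytes, where Tex101 was at 4632 CPM in WT and 4119 in KO cells. Ace, the testis form of angiotensin-converting enzyme among its products, was highest in elongating spermatids 4, at 626 CPM in WT and 545 in KO cells. Cmtm2a, Cmtm2b, Lypd4 and Pmis2, each required for ADAM3 in mature sperm or for passage into the oviduct, had ratios of 0.035, 0.053, -0.067 and -0.31.

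Of 12 general folding factors of the endoplasmic reticulum, 6 met the detection condition and all 6 were called higher, beside 11.4% of all genes, with Canx at 0.88, Calr at 0.64, Hspa5 at 0.96, Hsp90b1 at 0.69, Pdia3 at 0.60 and Pdia6 at 0.74. These genes were highest in early spermatocytes, and spermatogonia made up 1064 of 5268 germ cells in the KO and 190 of 5587 in the WT library. With the clusters at equal weight none of the 12 was called, and the ratios of these 6 were still above 0, from 0.14 for Pdia6 to 0.43 for Calr. In early spermatocytes Calr was at 722 CPM in WT and 1201 in KO cells, a log2 ratio of 0.73 (0.52 to 0.96), and Hsp90b1 at 1594 and 2339 CPM, a ratio of 0.55 (0.41 to 0.70). Both passed the criterion there, beside 4.77% of genes called higher. Canx, Hspa5, Pdia3 and Pdia6 had ratios of 0.54 (0.25 to 0.84), 0.47 (0.40 to 0.55), 0.43 (0.17 to 0.70) and 0.23 (0.031 to 0.44) in that cluster, without a call. The cluster held 35 WT and 121 KO cells. There the 10 Leydig cell markers were together 2.95 times as high in KO (9 higher). The 12 Sertoli cell markers were 22.7 times (7 higher) and the 11 macrophage markers 8.99 times as high (9 higher). In the WT cells 6, 10 and 8 of these markers were at 0. The endothelial and lymphoid lists stood at 0.37 and 0.90 times. The part of these in the ratios was not tested. Of 10 genes of sperm-egg fusion and the zona, 8 met the condition and 0 were called, with Crisp2 at -0.17, Zpbp at -0.21, Zpbp2 at -0.11 and Spesp1 at 0.022.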

How the data were processed

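The deposited tables hold counts of UMIs per gene and cell for 1 WT and 1 KO library, made by the authors with GEXSCOPE kits. Reads were trimmed (fastp), aligned (STAR 2.5.3a) and counted (featureCounts 1.6.2), as the submitters' processing notes list them. The methods name a human build, whereas the gene symbols are those of mouse, so the build behind the tables is uncertain and coordinates rest on symbols. The tables hold 5756 and 7012 barcodes, all with over 500 genes, which is more than the study states after its own filter. Cells with over 500 genes were integrated and clustered in Seurat 5.3.0 (R 4.3.3) with 2000 variable features, 20 anchor dimensions, 30 principal components and resolution 0.3. A cluster took the name whose markers, at least 3 of them found in 10% of its cells at 2 times the level elsewhere, had the highest mean fold.

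Summed counts were compared as CPM, with exact Poisson, binomial and conditional 95% intervals, in Python 3.11.15 (scipy 1.17.1). A sum of 0 was taken at 3 counts. UMIs limit but do not remove amplification effects, and intervals cover counting error only. Cells called doublets by Scrublet (scanpy 1.11.5), 244 in WT and 345 in KO, were kept in the main results. For shares of cells, each cell was thinned to 5000 UMIs, which left out 177 KO and no WT germ cells. The size criterion and the intervals were run on simulated Poisson counts with changes of 3 times, larger than any germ cell call among the 9 genes. Variation beyond counting error was not simulated, so the run does not show how they perform on these cells. Cells are not replicates and no p-value was computed. Alternatives were another resolution, no integration, the 9 genes removed from the variable features, over 1000 genes per cell, doublets removed, mitochondrially encoded and ribosomal protein genes left out, thinned cells, equal weight per cluster and other limits of the criterion.

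The 9 genes and all lists were chosen with earlier results of these data known. Named beside them were listed genes past the size criterion in pooled germ cells, Canx, Calr and P4hb, chromosome neighbours, the 8 other listed genes with the largest summed UMIs, and the 3 most similar genes of each.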

Additional observations from a re-analysis of the deposited data

Results flagged for a closer look

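Of the 9 genes, 5 had KO over WT ratios on opposite sides of 0 in different germ cell clusters, counting only clusters with at least 100 UMIs in each library and ratios whose counting interval did not reach 0. The lowest and highest log2 ratios were -0.93 in spermatogonia and 1.11 in elongating spermatids 4 for Adam3, -0.95 in spermatogonia and 0.71 in elongating spermatids 3 for Adam5, and -0.48 in spermatogonia and 1.07 in elongating spermatids 2 for Adam32. For Clgn they were -0.50 in early spermatocytes and 0.60 in late-stage round spermatids, and for Calr3 -0.41 in late-stage round spermatids and 0.47 in elongating spermatids 2. With 1 library per genotype the difference between clusters was not tested. The spermatid marker lists were also lower in KO spermatogonia, at 0.37 to 0.69 times the WT level, and their part in these ratios was not tested. The spermatogonia levels of these genes, set beside those of Leydig cells, were 113.5 and 65.5 CPM for Adam3, 126 and 105 for Adam5 and 72.0 and 64.6 for Adam32 in the WT library, and 59.4 and 42.1, 65.2 and 43.5, and 51.5 and 31.6 CPM in the KO library. For Clgn in late-stage round spermatids, the share of cells with a UMI at 5000 UMIs was 24.2% in WT and 26.8% in KO cells, with overlapping intervals.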

How the results depend on the processing

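No paired analysis was possible because there was 1 library per genotype, and for the same reason no replicate could be left out. The count of the 9 genes past the size criterion in pooled germ cells was 0 under all 10 alternatives. The median log2 ratio of the 9 was -0.097 and lay between -0.11 and -0.063 under 6 of the 8 alternatives tried for it. With cells thinned to 5000 UMIs it was -0.19 and with equal weight per germ cell cluster 0.024, so its sign depends on how clusters are weighted. By germ cell class, 7 alternatives were planned, and both limits of the criterion and equal weight per cluster of a class were added after seeing the data. The call of Adam32 as higher in elongating spermatids was made under all 10, with log2 ratios of 0.74 to 1.33. That of Adam5 was made under 8 of 10, with ratios of 0.30 to 0.60, and was lost at equal weight (0.30) and with a CPM ratio of at least 1.5 as the limit. The call of Calr3 as lower in late-stage round spermatids was made under 7 of 9, with ratios of -0.53 to -0.20, and was lost without integration (-0.20) and under that limit. The call of Clgn as lower in early spermatocytes was made under 5 of 9, and its ratio was 0.28 without integration. Without integration, 20 of 62 class ratios moved beyond their counting interval, and the cause was not tested. Shares of cells moved with the depth to which cells were thinned, by construction. No value has a replicate error, and early spermatocytes rest on 35 WT cells.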
